A study of Mus musculus with 16 samples.

Results

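The genes described here are 36 members of the pathways that build sterols and fatty acids in mouse kidney cortex. They were chosen by symbol, through the Ensembl ID of each row of the count table and the GENCODE M21 annotation, and all 36 were found among the 55414 genes of the table. They comprise 19 enzymes of cholesterol synthesis (8 from acetyl-CoA to the isoprenoids, 11 from squalene onward). A further 6 are called regulators here, among them Stard4, which is a sterol carrier. The rest are 5 genes that build fatty acids and 6 that desaturate or elongate them. All 36 passed the filter on low counts.

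RNA was sequenced from the kidney cortex of male wild-type C57BL/6J mice, a common inbred strain, with 4 libraries in each of 4 groups. One group was sedentary, and the other 3 were made to run on a treadmill for 40 minutes at 70% of their capacity, for 1 day (called 24 h here), for 1 week (1 wk) or for 2 weeks (2 wk). No genotype or drug differed between the groups, and the sources used here give no age. They leave unstated whether 24 h is the span of running or the delay between a run and death, and they give no such delay for the other groups. The labels do not say that the libraries came from separate animals, so p-values measure the spread between libraries, which may be technical in part. An unexplained letter in the titles, one for sedentary and another for every exercised library, cannot be told apart from exercise.

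Library totals lay between 39766260 and 66852397 counts, and a member had 370 to 34426 counts in a library. Counting noise was part of the spread for the members with the fewest counts. Proximal tubule markers had the highest sum of the cell type marker lists in all 16 libraries, at 44095 to 60117 CPM (counts scaled to library size). Most of that sum was the gene Kap, with 1364403 to 2166267 counts in a library. The 1st library at 1 wk also held transcripts of the adrenal cortex, the gland next to the kidney. It had 50 counts of the steroid hydroxylase gene Cyp21a1 and 22 of Cyp11b1, with 0 of each in the other 15 libraries, and Cyp11b2 was at 0 throughout. The 1st library at 2 wk held transcripts of fat cells, with 108 counts of the hormone gene Adipoq and 105 of the brown fat gene Ucp1, against at most 12 and 15 elsewhere. Both tissues make lipids. The counts of members against sedentary mice, for 2 wk against 24 h and over the 4 groups are therefore also given without these libraries. Marker values are given only with them. The 3rd and 4th libraries at 24 h stood apart in 6 heat shock genes, at a summed 4219 and 2974 CPM against 1574 to 1976 CPM in the other 24 h libraries.

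**Figure D1:**
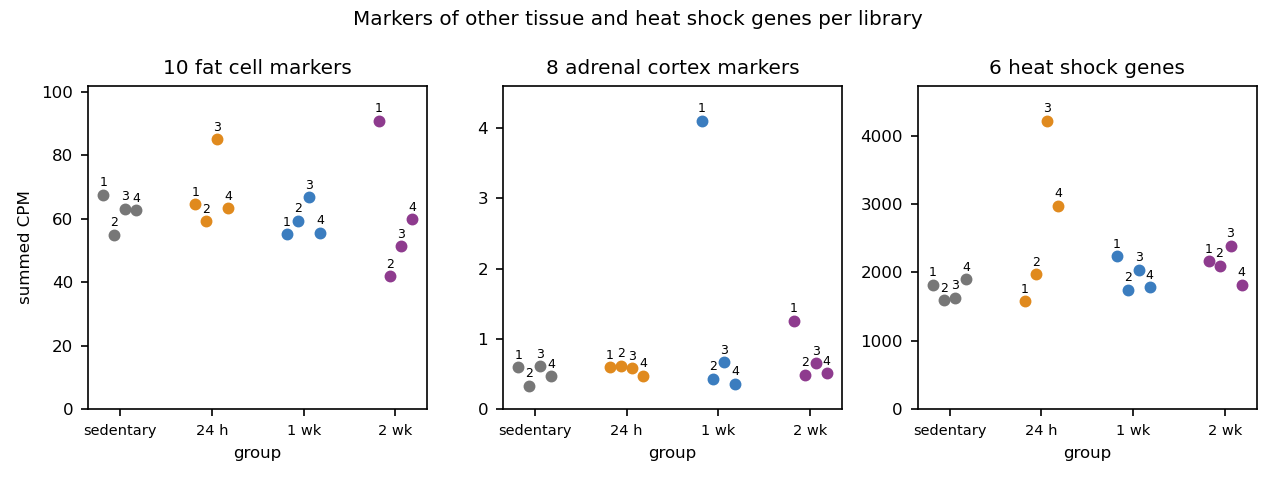
Summed CPM of fat cell markers, adrenal cortex markers and heat shock genes in each library (points, numbered by replicate), on linear axes from 0. The 1st 1 wk library stands at 4.10 CPM of adrenal cortex markers, the 1st 2 wk library at 90.9 CPM of fat cell markers and the 3rd 24 h library at 4219 CPM of heat shock genes. The 3rd 24 h library is close to the highest in fat cell markers, at 85.1 CPM. Most of the fat cell sum is Fabp4 and Lipe, so it sets the 1st 2 wk library apart less than Adipoq and Ucp1 do.

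Cholesterol and fatty acids are both made from acetyl-CoA. Cholesterol synthesis runs through mevalonate, the isoprenoids and squalene, while fatty acid synthesis runs through malonyl-CoA, after which chains are elongated and given double bonds. The membrane-bound transcription factors of the Srebf genes switch on both branches: Srebf2 acts mainly on sterol genes, and the short form of Srebf1 mainly on fatty acid genes. Scap carries these factors to the Golgi for release, and the Insig proteins hold them in the endoplasmic reticulum while sterols are plentiful. The proximal tubule, the bulk of the cortex, draws most of its energy from burning fatty acids.

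Promoter windows were searched for letters that these factors and their partners are known to bind, on both strands. The windows ran from 250 bases before to 50 after the annotated start (RefSeq, GRCm38.p6), and 29 of the 36 members had one. The windows printed here belong to a gene of each role described later: a sterol enzyme at the entry of the pathway, the sterol enzyme of smallest p at 2 wk that had a window, a regulator and the fatty acid synthase. Capitals mark TCACNCCAC (a sterol regulatory element-like sequence), CCAAT or its reverse ATTGG, and CACGTG (an E-box). In the Fasn window one CCAAT and one ATTGG overlap.
Hmgcs1 (chr13:119690101-119690400, plus strand): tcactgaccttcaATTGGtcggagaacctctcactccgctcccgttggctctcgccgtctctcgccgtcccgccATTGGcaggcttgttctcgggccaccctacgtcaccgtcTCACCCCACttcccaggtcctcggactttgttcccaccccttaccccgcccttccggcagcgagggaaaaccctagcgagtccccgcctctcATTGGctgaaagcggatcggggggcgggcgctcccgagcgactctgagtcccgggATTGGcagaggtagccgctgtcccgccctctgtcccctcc
Lss (chr10:76531355-76531654, plus strand): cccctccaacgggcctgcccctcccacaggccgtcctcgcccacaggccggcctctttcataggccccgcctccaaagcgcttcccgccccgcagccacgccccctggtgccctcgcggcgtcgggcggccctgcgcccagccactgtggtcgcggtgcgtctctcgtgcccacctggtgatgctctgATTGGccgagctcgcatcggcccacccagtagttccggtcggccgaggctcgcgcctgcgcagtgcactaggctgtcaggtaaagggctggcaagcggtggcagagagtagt
Insig1 (chr5:28071162-28071461, plus strand): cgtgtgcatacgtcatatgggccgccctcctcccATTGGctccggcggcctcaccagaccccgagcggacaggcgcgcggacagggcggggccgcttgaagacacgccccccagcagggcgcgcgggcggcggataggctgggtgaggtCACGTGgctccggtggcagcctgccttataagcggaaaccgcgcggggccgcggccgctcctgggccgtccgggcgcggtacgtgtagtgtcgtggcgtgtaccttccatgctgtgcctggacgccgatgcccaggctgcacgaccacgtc
Fasn (chr11:120824498-120824797, minus strand): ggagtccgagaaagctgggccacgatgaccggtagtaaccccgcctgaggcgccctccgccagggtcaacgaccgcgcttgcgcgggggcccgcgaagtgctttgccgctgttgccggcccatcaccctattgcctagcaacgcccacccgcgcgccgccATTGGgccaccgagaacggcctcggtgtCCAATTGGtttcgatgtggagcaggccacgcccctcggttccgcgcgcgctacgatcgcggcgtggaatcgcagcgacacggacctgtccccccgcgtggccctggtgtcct
TCACNCCAC was found in 1.24% of all 32851 windows and in 1 of 38 member windows, that of Hmgcs1, where it starts 137 bases before the gene's start. CCAAT was found in 37.4% of all windows and in 25 of 38 member windows, among them those of 15 of 16 sterol enzymes and of 5 of 8 fatty acid genes. CACGTG was found in 7.15% of all windows and in 7 member windows, and the GC box GGGCGG, not capitalised above, in 35.7% of all windows and in 26 member windows. These are matches of letters only, and whether any factor binds there was not measured.

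In sedentary mice the members spanned a wide range of levels per length. In RPKM, which is CPM divided by the kilobases of annotated exon, the malic enzyme Me1, which supplies NADPH for fatty acid synthesis, stood first at 146 ± 5.60 RPKM (SD, n = 4). Next came Hmgcs1, which makes HMG-CoA for the mevalonate pathway, at 78.7 ± 6.67 RPKM. The sterol demethylase Cyp51 (74.1 ± 9.98 RPKM) and the delta-6 desaturase Fads2 (68.4 ± 8.85 RPKM) followed. Their ranges of mean ± SD overlapped each other and that of Hmgcs1. At the other end were the elongase Elovl6 (1.75 ± 0.047 RPKM) and the acetyl-CoA carboxylases Acacb (1.78 ± 0.18 RPKM) and Acaca (0.85 ± 0.11 RPKM). The median was 8.33 RPKM for sterol enzymes and 13.003 RPKM for fatty acid genes, against 2.54 RPKM over the 16096 tested genes that had a length. Lengths count every annotated exon, which lowers genes with many transcript forms, such as Lss at 2.23 ± 0.25 RPKM.

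No member passed the threshold in edgeR, and the differences were small. At 24 h the sterol enzymes had a mean above and the fatty acid genes one below the sedentary level, and at 1 wk and 2 wk the means of both branches and of the regulators were above it. Averaged over its genes as log2 CPM minus the sedentary mean, the sterol branch stood at 0.07 ± 0.06 at 24 h, 0.15 ± 0.15 at 1 wk and 0.14 ± 0.05 at 2 wk (SD, n = 4). The fatty acid branch stood at −0.07 ± 0.08, 0.08 ± 0.13 and 0.27 ± 0.18. The regulators stood at −0.02 ± 0.06, 0.12 ± 0.12 and 0.23 ± 0.10. The spread between libraries was as large as most of these differences, and no test was made of these averages.

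**Figure D2:**
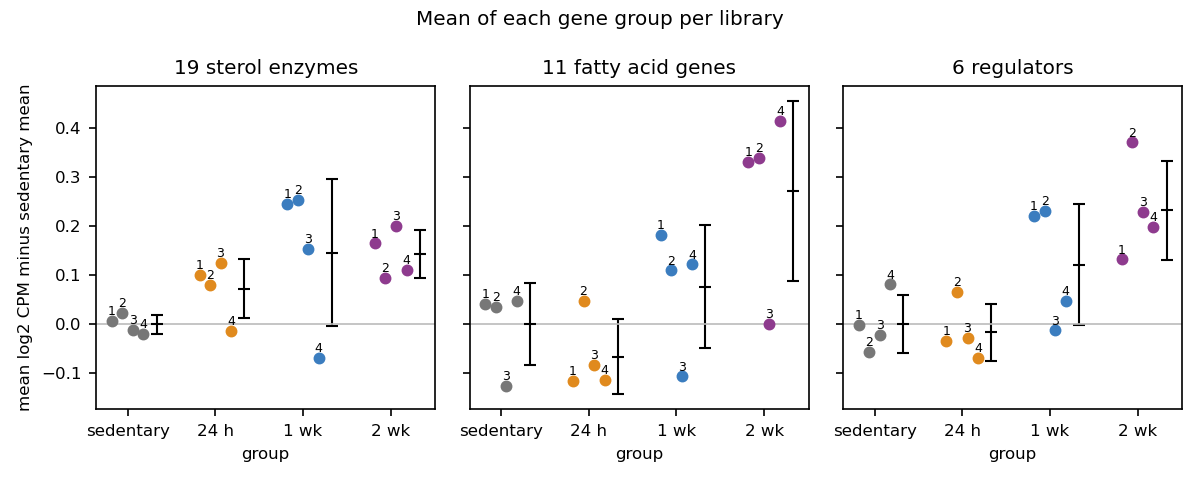
Mean over the genes of each group of log2 CPM minus the sedentary mean, per library (points, numbered by replicate), with the group mean ± SD beside them (n = 4). The 2 wk libraries lie above all sedentary libraries for the sterol enzymes (lowest 0.09) and the regulators (lowest 0.13), and 1 of them lies at 0.00 for the fatty acid genes.

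Single libraries set parts of this pattern. The fatty acid average was 0.33, 0.34, 0.00 and 0.42 in the 4 libraries at 2 wk, and the 3rd was the lowest of its group for 10 of 11 fatty acid genes. The library numbered 3 also had the lowest fatty acid average in sedentary mice (−0.13) and at 1 wk (−0.11), but not at 24 h. The sterol average was 0.25, 0.25, 0.15 and −0.07 at 1 wk, and the 4th was the lowest of its group for 12 of 19 sterol enzymes. At both durations the library lowest in one branch was not the lowest in the other. The sterol average minus the fatty acid average was 0.14 ± 0.09 at 24 h, 0.07 ± 0.19 at 1 wk and −0.13 ± 0.23 at 2 wk, with 0.00 ± 0.08 in sedentary mice. Without the 3rd library of each group it was 0.0055 at 1 wk and −0.24 at 2 wk, and without the 4th it was 0.16 and −0.07. In bulk tissue, fewer cells of a type and less RNA per cell cannot be told apart.

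**Figure D3:**
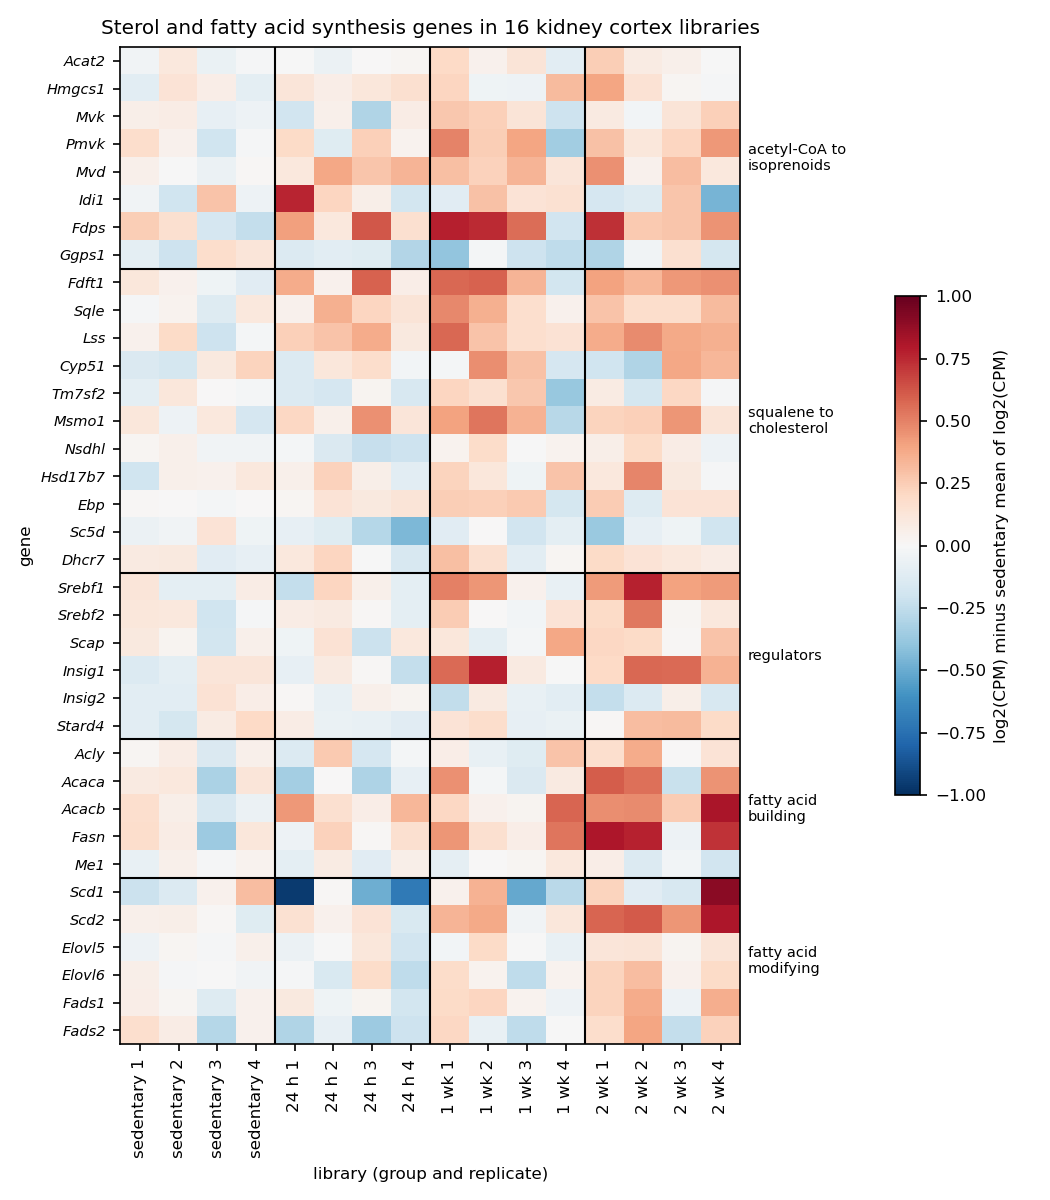
Log2 CPM minus the mean of the sedentary libraries for each of the 36 genes (rows, by role) in each of the 16 libraries (columns, by group), with red above and blue below the sedentary mean. Scd2 is red in all 4 libraries at 2 wk, and the 3rd of them is paler or blue in most fatty acid rows.

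At 24 h few members stood apart from the sedentary level. Mvd and Lss, of the sterol branch, were at a higher mean, and Sc5d, late in the same branch, was at a lower one. Of the fatty acid genes, 8 of 11 had a log2 fold change below 0, with Scd1 the farthest. EdgeR's quasi-likelihood test, adjusted over 16126 genes, passed 0 of 36 members and 0.0% of all genes. At an unadjusted p under 0.05 it held 3 members (2 higher, 1 lower), and 8.92% of all genes (4.49% higher, 4.43% lower), so the members' share was near the background. DESeq2 and voom also passed 0 members, with 3 and 6 at an unadjusted p under 0.05, against 1572 and 2244 of all 16126 genes. Log2 fold changes were above 0 in 13 of 19 sterol enzymes, 3 of 11 fatty acid genes and 3 of 6 regulators, against 49.0% of all genes. The median was 0.09 for sterol enzymes and −0.02 for fatty acid genes, against −0.0046 over all genes. Without the 4th 24 h library the fatty acid median was 0.02, with 6 of 11 above 0. The libraries did not overlap, with those at 24 h higher, for 2 members, Mvd and Ebp (3.55% of all genes), and, with those at 24 h lower, for 1, Sc5d (3.66%). Without the 3rd library at 24 h, the one highest in heat shock genes, 1 sterol enzyme had an unadjusted p under 0.05 and the sterol median was 0.06. In that fit 883 of 16319 genes had such a p. All 6 heat shock genes had an unadjusted p under 0.05 at 24 h, as did the collagen genes Col1a1, Col1a2 and Col3a1, all higher. So did 2 of 5 tested fat cell markers, 1 of 7 collecting duct and 1 of 7 macrophage markers, also higher. All 8 proximal tubule markers had a log2 fold change below 0 (median −0.17), 0 of them with such a p. All 5 distal tubule (median 0.18) and all 4 podocyte markers (0.19) were above 0, also 0 with such a p. The part of any of these in the members' values was not tested.

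At 1 wk the members of smallest p were sterol enzymes and Insig1. They were Lss, Sqle, Fdps, Mvd, Fdft1 and the regulator Insig1, all with higher means than in sedentary mice, and no fatty acid gene had an unadjusted p under 0.05. The difference between the branches was not tested, and without the 3rd 1 wk library 11 of 11 fatty acid genes were above 0 and 2 had such a p. In that fit 964 of 16320 genes had such a p. EdgeR's quasi-likelihood test passed 0 of 36 members and 0.0% of all genes after adjustment, and DESeq2 and voom passed 0 as well. At an unadjusted p under 0.05 there were 6 members, all higher, against 6.05% of all genes (2.33% higher, 3.72% lower). DESeq2 gave 6 members and voom 12, against 1038 and 2365 of all 16126 genes. Log2 fold changes were above 0 in 17 of 19 sterol enzymes, 9 of 11 fatty acid genes and 5 of 6 regulators, against 51.1% of all genes. The medians were 0.15, 0.05 and 0.10, against 0.00 over all genes. Only Mvd had no overlap between the groups' libraries, where 1.71% of all genes did so in the higher direction. Without the 1st 1 wk library, which held adrenal cortex transcripts, 2 members had an unadjusted p under 0.05, Mvd and Insig1, against 902 of 16336 genes. The sterol median was then 0.12, with 17 of 19 still above 0. Without the 4th, the lowest in sterol genes, 13 members had such a p, against 1789 of 16323 genes in that fit and 975 of 16126 over all libraries. Adrenal markers summed to 0.36 to 4.10 CPM at 1 wk and to 0.33 to 0.61 CPM in sedentary mice. Of 5 endothelial markers 4 had an unadjusted p under 0.05 at 1 wk, and of 7 macrophage markers 3, all lower, with median log2 fold changes of −0.35 and −0.36 over the 5 and the 7. All 5 distal tubule markers had a log2 fold change above 0 (median 0.30), 1 of them with such a p. Of 7 collecting duct markers 1 was higher by that measure, and of 5 T cell and 5 fibroblast markers 1 each was lower. The part of these in the members' values was not tested.

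At 2 wk the means of both branches and of the regulators were above their sedentary levels. The 3rd 2 wk library lay within the sedentary range of the fatty acid average. The genes with the smallest p were Scd2, Srebf1, Lss, Acacb and Fasn, with mean differences of 1.31-fold to 1.53-fold. EdgeR's quasi-likelihood test passed 0 of 36 members and 0.0% of all genes after adjustment, with Scd2 nearest (adjusted p = 0.0591), while DESeq2 and voom each passed 1 member, Scd2. At an unadjusted p under 0.05 there were 12 members, all higher, against 7.26% of all genes (4.02% higher, 3.24% lower). DESeq2 gave 14 members and voom 15, against 1281 and 1740 of all 16126 genes. The 12 were 5 of 19 sterol enzymes, 5 of 11 fatty acid genes and 2 of 6 regulators. Log2 fold changes were above 0 in 16 of 19, 10 of 11 and 5 of 6, against 52.1% of all genes, with medians of 0.12, 0.24 and 0.21 against 0.01 over all genes. For 9 members every 2 wk library lay above every sedentary one (2.29% of all genes), 5 of them sterol enzymes, 2 fatty acid genes and 2 regulators. Without the 1st 2 wk library, which held fat cell transcripts, 10 members had an unadjusted p under 0.05, and the medians were 0.12, 0.24 and 0.25. In that fit 866 of 16337 genes had such a p.

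Cell type markers also differed at 2 wk. Of 5 distal tubule markers 3 had an unadjusted p under 0.05, all higher: the sodium chloride cotransporter Slc12a3 (0.49 ± 0.14 in log2, SE), Klhl3 (0.45 ± 0.13) and Calb1 (0.58 ± 0.21). Their summed level was 895 to 1187 CPM at 2 wk and 584 to 911 CPM in sedentary mice. The collecting duct genes Scnn1g, Slc26a4 and Avpr2 were higher by the same measure, and the endothelial genes Emcn and Kdr and the complement genes C1qb and C1qc of macrophages were lower. Of 10 fat cell markers 5 were tested, and 3 of these were higher by that measure, with a median log2 fold change of 0.68 over the 5. The fat cell markers summed to 41.8 to 90.9 CPM at 2 wk, highest in the 1st library, and to 55.0 to 67.6 CPM in sedentary mice. None of these passed edgeR's quasi-likelihood test after adjustment (adjusted p of 0.185 or more). The summed proximal tubule markers were at 45138 to 60117 CPM at 2 wk and 51585 to 57885 CPM in sedentary mice. Most of this sum was the gene Kap, so it says little of the other markers. Of the 8 proximal tubule markers 5 had a log2 fold change above 0 at 2 wk and 3 below, with a median of 0.06. Collecting duct markers summed to 445 to 724 CPM at 2 wk against 416 to 522 CPM in sedentary mice, thick limb markers to 2582 to 4139 CPM against 3159 to 3829 CPM, and podocyte markers to 176 to 269 CPM against 196 to 246 CPM. Endothelial markers summed to 122 to 178 CPM at 2 wk and 132 to 158 CPM at 1 wk against 162 to 199.8 CPM, and macrophage markers to 98.8 to 129.7 CPM and 97.5 to 126 CPM against 121 to 137 CPM. T cell markers summed to 2.25 to 2.79 CPM at 2 wk against 3.14 CPM or more, and fibroblast markers to 78.7 to 103 CPM against 85.4 to 119 CPM. Of all summed marker lists only the T cell sums did not overlap between 2 wk and sedentary mice, while at 1 wk the endothelial sums and the T cell sums (2.26 to 2.84 CPM) did not, and none of these sums was tested. The part of cell makeup in the members' values was not tested.

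**Figure D4:**
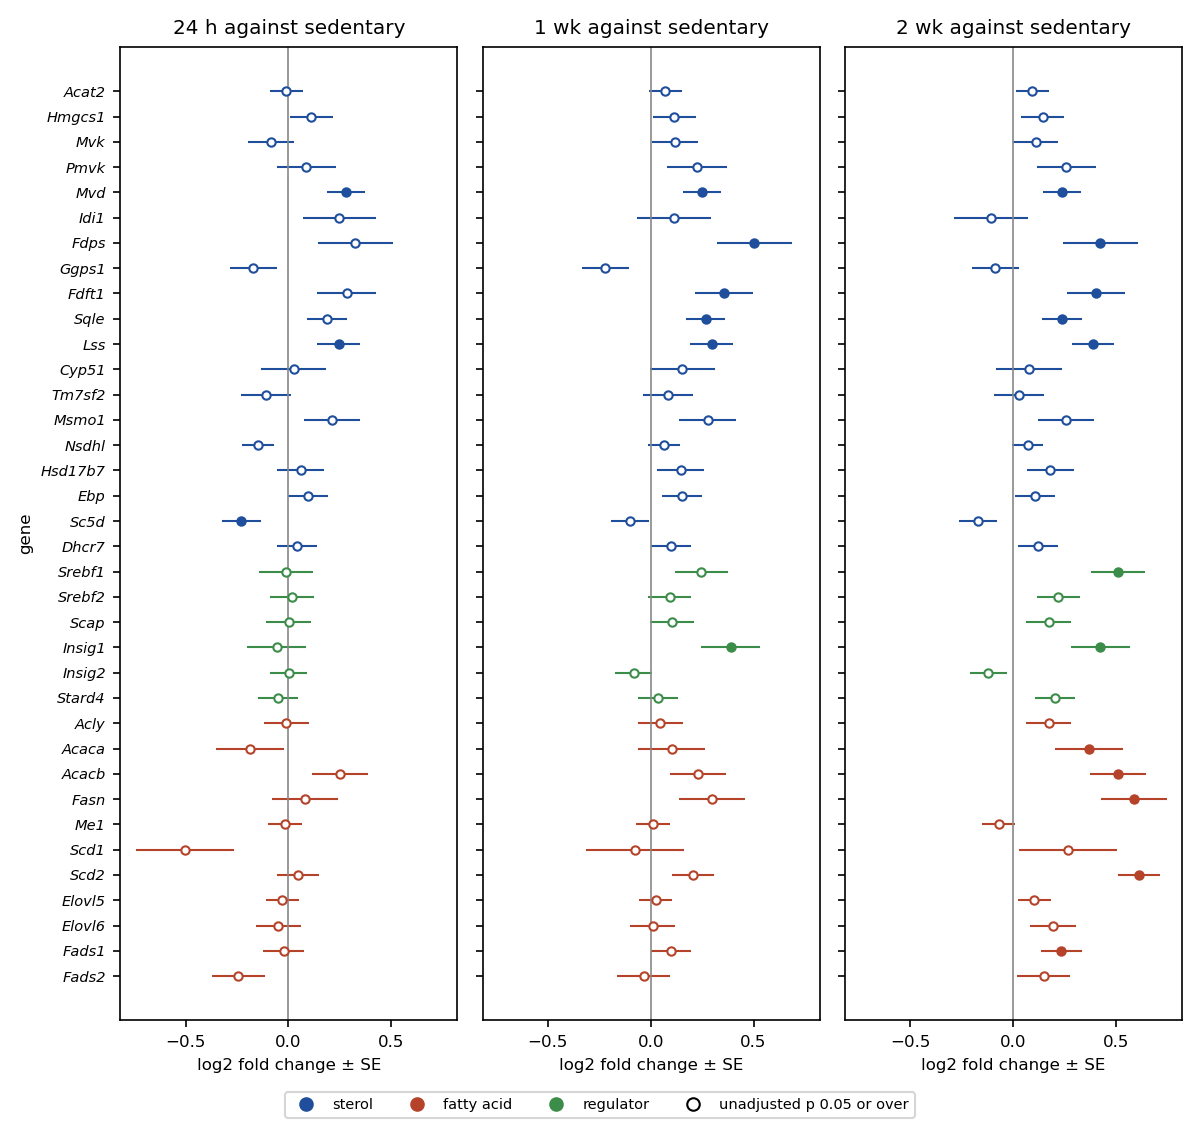
Log2 fold change against sedentary mice ± SE for each of the 36 genes at 24 h, 1 wk and 2 wk from edgeR, coloured by branch, with open points where the unadjusted p was 0.05 or over. Filled points number 3, 6 and 12 from left to right, and 5 of the 12 at 2 wk are fatty acid genes. The 3 comparisons share their sedentary libraries.

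Among the enzymes from acetyl-CoA to the isoprenoids, Mvd was higher in mean at all 3 durations. Mvd removes a carboxyl group from mevalonate diphosphate (GRCm38 chromosome 8, 122433601 to 122443422, minus strand). It was at 86.7, 83.4, 80.5 and 84.3 CPM in the sedentary libraries, 89.8, 109, 102 and 106 CPM at 24 h, 103, 98.2, 106 and 90.95 CPM at 1 wk and 115, 86.2, 104 and 90.2 CPM at 2 wk. Of the 12 exercised libraries only the 2nd at 2 wk fell inside the sedentary range, and the other 11 were above it. The log2 fold changes were 0.28 ± 0.09 (SE, 4 of 4 libraries above the sedentary mean), 0.25 ± 0.09 and 0.24 ± 0.09, with edgeR's adjusted p at 0.368, 0.673 and 0.587.

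Fdps joins the isoprenoid units into farnesyl diphosphate, the branch point to sterols. It was at 13.8, 12.9, 10.3 and 9.81 CPM in the sedentary libraries, 15.4, 12.5, 17.9 and 12.97 CPM at 24 h, 19.9, 19.4, 17.1 and 10.1 CPM at 1 wk and 19.2, 13.9, 14.05 and 15.9 CPM at 2 wk. At 2 wk its libraries lay just above the sedentary ones, and at 1 wk the 4th library sat within the sedentary range while the other 3 were well above it. The log2 fold change was 0.50 ± 0.18 (SE) at 1 wk (unadjusted p = 0.0124, edgeR adjusted p = 0.671) and 0.42 ± 0.18 at 2 wk (adjusted p = 0.64). Of its exon bases 26.7% are shared on the same strand with the gene Gm43738, so its counts are uncertain. The other enzymes of this stretch, Acat2, Hmgcs1, Mvk, Pmvk, Idi1 and Ggps1, had no unadjusted p under 0.05 at any duration. Ggps1, which leads to geranylgeranyl diphosphate and away from sterols, had log2 fold changes below 0 at all 3 durations, −0.17 ± 0.11, −0.22 ± 0.11 and −0.09 ± 0.11.

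From squalene onward, the first 3 enzymes had the smallest p at 1 wk and at 2 wk. Fdft1, which makes squalene, was at 34.9, 33.1, 31.1 and 29.7 CPM in the sedentary libraries, 41.6, 33.2, 48.4 and 33.6 CPM at 24 h, 47.8, 48.4, 40.6 and 28.3 CPM at 1 wk and 42.5, 40.4, 43.4 and 44.2 CPM at 2 wk. The 2 wk libraries were close together and above all sedentary ones, while 24 h and 1 wk overlapped them. The log2 fold change was 0.40 ± 0.14 (SE) at 2 wk, with an unadjusted p of 0.0103 and edgeR's adjusted p at 0.52. Of its exon bases 18.3% overlap Ctsb, a protease gene on the opposite strand, and the sources used here do not give the strand setting of the counting.

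Sqle, which oxidises squalene, was at 86.9, 89.6, 80.2 and 94.00 CPM in the sedentary libraries, 90.2, 112, 102 and 95.7 CPM at 24 h, 122, 112, 98.2 and 90.2 CPM at 1 wk and 107, 99.1, 98.98 and 109 CPM at 2 wk. The 2 wk libraries were above the sedentary ones by a narrow margin, and the lowest 1 wk library fell inside the sedentary range. The log2 fold change was 0.27 ± 0.10 (SE) at 1 wk and 0.24 ± 0.10 at 2 wk, with edgeR's adjusted p at 0.671 and 0.605.

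Lss closes squalene epoxide into lanosterol, the first sterol (chromosome 10, 76531588 to 76557138, plus strand), and its promoter window shown above holds 1 ATTGG. Its level was 24.6, 27.2, 20.7 and 23.6 CPM in the sedentary libraries, 28.1, 29.1, 30.9 and 25.6 CPM at 24 h, 35.6, 29.2, 26.8 and 26.4 CPM at 1 wk and 30.9, 33.2, 31.1 and 30.6 CPM at 2 wk. All 4 libraries at 2 wk were above all sedentary ones, and at 24 h and 1 wk only the highest sedentary library overlapped. The mean at 2 wk was 31.5 ± 1.21 CPM against 24.0 ± 2.70 CPM (SD, n = 4), a log2 fold change of 0.39 ± 0.10 (SE, unadjusted p = 0.00133, edgeR adjusted p = 0.357). At 24 h it was 0.24 ± 0.10 and at 1 wk 0.30 ± 0.10. It had an unadjusted p under 0.05 at 2 wk in all 8 fits lacking a library of either group, with log2 fold changes of 0.32 to 0.45.

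The 8 later enzymes lead from lanosterol to cholesterol. Of Cyp51, Tm7sf2, Msmo1, Nsdhl, Hsd17b7, Ebp, Sc5d and Dhcr7, only Sc5d had an unadjusted p under 0.05 against sedentary mice. Sc5d, a desaturase of the sterol ring, was at 49.00, 49.97, 56.3 and 49.7 CPM in the sedentary libraries, 48.3, 47.1, 42.1 and 37.5 CPM at 24 h, 47.3, 51.3, 44.7 and 47.8 CPM at 1 wk and 39.5, 48.4, 49.6 and 44.6 CPM at 2 wk. All 24 h libraries were below all sedentary ones, and the other durations overlapped them. Its log2 fold changes were −0.23 ± 0.09, −0.10 ± 0.09 and −0.17 ± 0.09 (SE), with edgeR's adjusted p at 0.488, 0.936 and 0.714. Msmo1, the C4 methyl oxidase, had 0.21 ± 0.14, 0.28 ± 0.14 and 0.26 ± 0.14, without an unadjusted p under 0.05, although all its 2 wk libraries were above the sedentary ones.

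Of the regulators, Srebf1 had the smallest p, at 2 wk. It lies on chromosome 11, 60199089 to 60222581, minus strand, and its counts do not separate the long and short forms. It was at 66.2, 57.03, 56.7 and 64.01 CPM in the sedentary libraries, 51.6, 70.7, 62.97 and 56.96 CPM at 24 h, 86.2, 82.8, 62.6 and 57.7 CPM at 1 wk and 81.7, 104, 80.3 and 81.9 CPM at 2 wk. All 2 wk libraries were above all sedentary and all 24 h libraries, the 2nd far above the rest, and at 1 wk the 1st and 2nd libraries were high and the other 2 within the sedentary range. The mean at 2 wk was 86.9 ± 11.2 CPM against 61.0 ± 4.85 CPM (SD, n = 4), 1.42-fold, with a log2 fold change of 0.51 ± 0.13 (SE, unadjusted p = 0.00092, edgeR adjusted p = 0.357).

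Srebf2, its sterol counterpart, was at 104, 104, 83.9 and 95.3 CPM in the sedentary libraries, 101, 103, 97.2 and 90.3 CPM at 24 h, 115, 96.8, 94.3 and 106 CPM at 1 wk and 110.1, 139, 97.8 and 104 CPM at 2 wk. The groups overlapped at every duration, with the 2nd 2 wk library the highest. Its log2 fold changes were 0.02 ± 0.11, 0.09 ± 0.11 and 0.22 ± 0.11 (SE), with edgeR's adjusted p at 0.979, 0.939 and 0.685.

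Insig1, itself a known target of the Srebf factors, was at 38.9, 40.1, 46.7 and 46.6 CPM in the sedentary libraries, 40.4, 45.7, 43.2 and 36.3 CPM at 24 h, 63.5, 73.5, 45.7 and 42.9 CPM at 1 wk and 49.2, 63.8, 63.7 and 54.5 CPM at 2 wk. The 1st and 2nd 1 wk libraries and all 2 wk libraries were above the sedentary range, and the 24 h libraries were within or below it. The log2 fold changes were −0.06 ± 0.14, 0.39 ± 0.14 and 0.42 ± 0.14 (SE), with edgeR's adjusted p at 0.933, 0.673 and 0.47. Its relative Insig2 had 0.00 ± 0.09, −0.08 ± 0.09 and −0.12 ± 0.09, none with an unadjusted p under 0.05. Stard4, which moves cholesterol between membranes, was at 56.6, 53.7, 64.3 and 69.7 CPM in the sedentary libraries, 63.8, 58.1, 57.6 and 56.1 CPM at 24 h, 66.6, 68.6, 57.3 and 58.01 CPM at 1 wk and 61.2, 75.1, 75.5 and 69.2 CPM at 2 wk. Its 2 wk libraries were on average the highest, but they overlapped the sedentary ones (0.20 ± 0.10, edgeR adjusted p = 0.685). Scap had 0.00 ± 0.11, 0.10 ± 0.11 and 0.17 ± 0.11.

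Among the genes that build fatty acids, Fasn, the synthase that assembles palmitate, was at 81.5, 75.8, 55.9 and 77.7 CPM in the sedentary libraries, 69.6, 84.5, 72.6 and 80.6 CPM at 24 h, 97.5, 80.3, 75.5 and 104 CPM at 1 wk and 126, 123, 69.3 and 119 CPM at 2 wk. Of the 2 wk libraries 3 were above every other library of the study, whereas the 3rd was within the sedentary range. The log2 fold change at 2 wk was 0.59 ± 0.16 (SE, unadjusted p = 0.00175, edgeR adjusted p = 0.357), and without the 3rd 2 wk library it was 0.75 ± 0.13 and passed, with edgeR's adjusted p at 0.0367. Without the 1st, which held fat cell transcripts, it was 0.51 ± 0.17 (adjusted p = 0.798).

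Acaca and Acacb, the carboxylases, make malonyl-CoA. Acacb, whose product restrains fatty acid entry into mitochondria, was at 19.2, 17.7, 15.3 and 16.4 CPM in the sedentary libraries, 23.1, 19.1, 17.9 and 21.5 CPM at 24 h, 19.7, 17.6, 17.4 and 25.6 CPM at 1 wk and 23.6, 23.7, 20.3 and 30.1 CPM at 2 wk. The 2 wk libraries were above all sedentary ones, and the other durations overlapped. Its log2 fold changes were 0.25 ± 0.14, 0.23 ± 0.14 and 0.51 ± 0.14 (SE), with edgeR's adjusted p at 0.605, 0.909 and 0.357. Acaca, the form used for synthesis, was at 15.4, 15.5, 11.6 and 15.7 CPM in the sedentary libraries, 11.4, 14.5, 11.7 and 13.6 CPM at 24 h, 19.8, 14.2, 13.02 and 15.3 CPM at 1 wk and 21.9, 21.1, 12.4 and 19.7 CPM at 2 wk. The 3rd 2 wk library was within the sedentary range, and the other 3 of that group were above it. The log2 fold change was 0.37 ± 0.16 at 2 wk (edgeR adjusted p = 0.653) and −0.19 ± 0.16 at 24 h (adjusted p = 0.785). The citrate lyase Acly (0.17 ± 0.11 at 2 wk) and Me1 (−0.07 ± 0.08) had no unadjusted p under 0.05 at any duration.

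Scd2, a desaturase that places a double bond in saturated chains, had the smallest p of all members. It lies on chromosome 19, 44293674 to 44306864, plus strand, and was at 65.9, 65.99, 64.00 and 58.3 CPM in the sedentary libraries, 70.4, 65.4, 69.6 and 57.2 CPM at 24 h, 80.1, 82.6, 61.95 and 68.5 CPM at 1 wk and 94.8, 97.2, 86.2 and 111 CPM at 2 wk. All 4 libraries at 2 wk were above all 12 others of the study. The mean was 97.3 ± 10.2 CPM against 63.5 ± 3.62 CPM in sedentary mice (SD, n = 4), 1.53-fold, a log2 fold change of 0.61 ± 0.10 (SE, unadjusted p = 9.34e-06). This was the 2nd smallest p of all 16126 genes, and edgeR's adjusted p of 0.0591 missed the threshold. DESeq2 (adjusted p = 8.98e-05), voom (0.00758) and edgeR with no filter on low counts (0.0175) passed it. Without single libraries of either group edgeR's adjusted p ranged from 0.0367 (without the 3rd 2 wk library) to 0.318, and it was 0.204 without the 1st 2 wk library, which held fat cell transcripts. The log2 fold change was then 0.63 ± 0.11.

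Its neighbour and close relative Scd1, the more abundant form here, varied more between libraries, with a coefficient of variation of 16.5% in sedentary mice against 5.70% for Scd2. Its sedentary level was 52.0 ± 8.58 RPKM against 11.6 ± 0.66 RPKM for Scd2 (SD, n = 4). Scd1 was at 217, 229.7, 259 and 312 CPM in the sedentary libraries, 129.6, 254, 180.0 and 154 CPM at 24 h, 259, 320.3, 177 and 209 CPM at 1 wk and 294, 233, 225 and 471 CPM at 2 wk. At 24 h 3 of 4 libraries were below the sedentary range, and at 2 wk the 4th was the highest of all while the others were within that range. The log2 fold changes were −0.50 ± 0.24, −0.08 ± 0.24 and 0.27 ± 0.24 (SE), with edgeR's adjusted p at 0.563, 0.989 and 0.82. Without the 4th 2 wk library the 2 wk value was −0.02, and at 1 wk the value was 0.04 without the 4th sedentary library and 0.05 without the 3rd 1 wk library, so neither sign held. The sources used here do not say how reads matching both genes were counted.

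The desaturases of polyunsaturated chains, Fads1 and Fads2, lay above the sedentary mean at 2 wk, at 0.24 ± 0.10 (unadjusted p = 0.0277) and 0.15 ± 0.13 in log2 (SE), with edgeR's adjusted p at 0.623 and 0.804. Fads2 was at 252, 236, 184 and 230.2 CPM in the sedentary libraries, 182, 212, 174 and 194 CPM at 24 h, 258, 212, 187 and 223 CPM at 1 wk and 253, 294, 189.8 and 263 CPM at 2 wk. At 24 h all 4 libraries were below the sedentary mean, but 1 sedentary library was as low, so the groups overlapped (−0.24 ± 0.13, edgeR adjusted p = 0.594). Elovl6, which extends palmitate to stearate, was at 11.7, 11.2, 11.2 and 11.01 CPM in the sedentary libraries, 11.2, 10.2, 12.8 and 9.44 CPM at 24 h, 12.8, 11.6, 9.44 and 11.6 CPM at 1 wk and 13.2, 13.99, 11.6 and 12.9 CPM at 2 wk. The 2 wk libraries were the higher ones with 1 inside the sedentary range (0.19 ± 0.11, edgeR adjusted p = 0.717). Elovl5, the elongase of polyunsaturated chains, had 0.10 ± 0.08 at 2 wk.

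**Figure D5:**
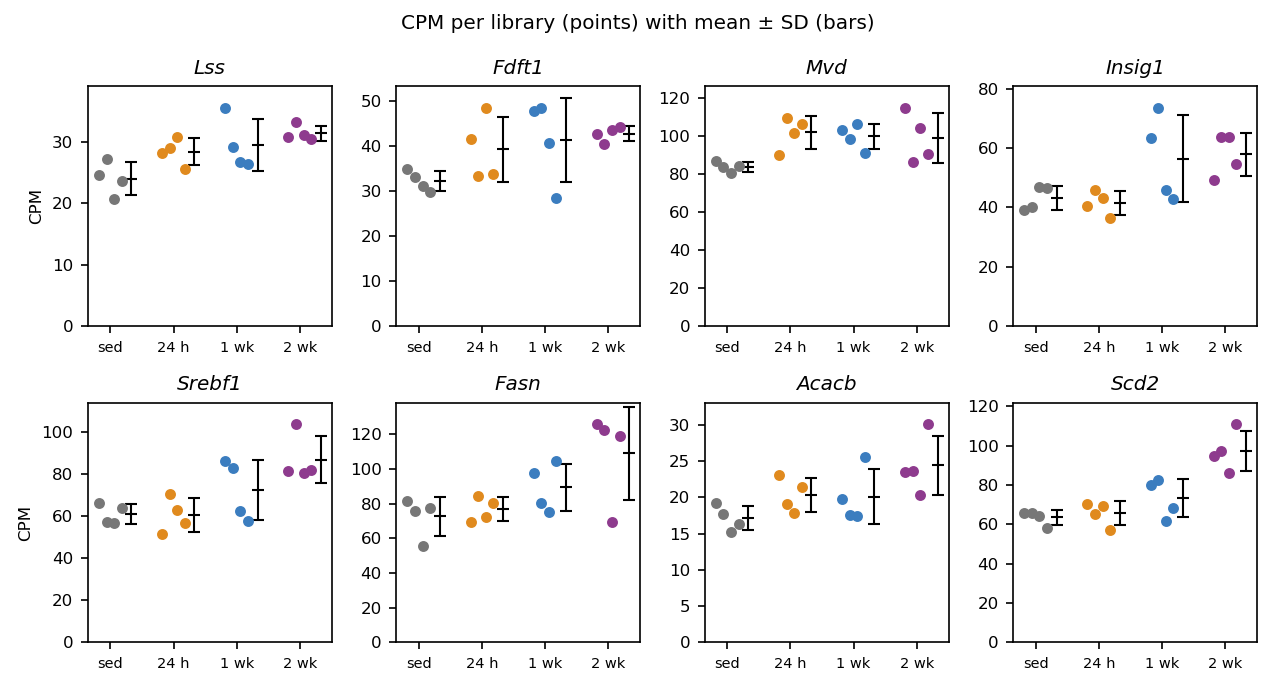
CPM of 8 genes in each library (points, in order of replicate), with the group mean ± SD (n = 4) beside them, on linear axes from 0. For Scd2 the 2 wk points lie between 86.2 and 110.9 CPM, above the other 12, while for Fasn 1 of the 2 wk points lies at 69.3 CPM.

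Over the 4 groups together, 12 members had an unadjusted p under 0.05 in edgeR's quasi-likelihood test, against 8.73% of all genes. Without both libraries with adrenal or fat transcripts 8 members did, against 1349 of 16292 genes. After adjustment 0 members passed and 0.0124% of all genes did, with Scd2 at 0.0683. DESeq2 passed Scd2 and Srebf1, and voom Scd2. The group mean was highest at 2 wk for 10 of 11 fatty acid genes, 5 of 6 regulators and 8 of 19 sterol enzymes, against 29.8% of all genes. It was highest at 1 wk for 7 of 19 sterol enzymes (22.1% of all genes) and lowest in sedentary mice for 12 of 19 (25.8%). For fatty acid genes the lowest group was 24 h in 7 of 11 (29.4%). The means followed the order sedentary, 24 h, 1 wk, 2 wk in 6 sterol enzymes, 2 fatty acid genes and 2 regulators, against 5.31% of all genes.

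Between durations, most members with a low p were found at 2 wk against 24 h. EdgeR's quasi-likelihood test gave an unadjusted p under 0.05 to 11 members, all higher at 2 wk, against 9.61% of all genes (5.29% higher). They were 7 of 11 fatty acid genes, 3 of 6 regulators and 1 of 19 sterol enzymes. Without the 1st 2 wk library 10 members had such a p, against 1653 of 16337 genes. After adjustment 0 members passed and 0.0124% of all genes did, while DESeq2 and voom each passed Scd2. The 6 of smallest p were Scd2 (0.57 ± 0.10, adjusted p = 0.0811), Srebf1 (0.52 ± 0.13, adjusted p = 0.298), Acaca (0.56 ± 0.16), Insig1 (0.48 ± 0.14), Scd1 (0.77 ± 0.24) and Fasn (0.51 ± 0.16). For Scd2, Srebf1 and Insig1 the libraries did not overlap, as in 1.7% of all genes in the higher direction. In the same comparison 5 of 7 macrophage markers, 4 of 5 fibroblast markers and 4 of 6 heat shock genes had an unadjusted p under 0.05, all lower at 2 wk, with median log2 fold changes of −0.60, −0.54 and −0.47 over each list. All 8 proximal tubule and all 7 collecting duct markers had a log2 fold change above 0, with medians of 0.17 and 0.25. Of these, 1 and 2 had such a p. Distal tubule markers were above 0 in 4 of 5 (median 0.27), 1 with such a p, and endothelial markers below 0 in 5 of 5, also 1. The part of these markers and of the heat shock genes in the members' values was not tested.

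The 1 wk and 24 h groups differed in fewer members. EdgeR's quasi-likelihood test gave an unadjusted p under 0.05 to 2 members, Insig1 (0.45 ± 0.14) and the sterol enzyme Nsdhl (0.21 ± 0.08), against 7.15% of all genes (2.43% higher). The libraries did not overlap for Nsdhl, as in 1.07% of all genes in the higher direction. Markers differed here too, with an unadjusted p under 0.05 in 6 of 7 macrophage, 4 of 5 fibroblast and 4 of 5 endothelial markers. So did 4 of 6 heat shock genes, and all of these were lower at 1 wk. The median log2 fold changes over each list were −0.57, −0.68, −0.34 and −0.61. Proximal tubule markers were above 0 in 7 of 8 (median 0.11) and distal tubule markers in 5 of 5 (median 0.10), 0 with such a p. The part of all these in the members' values was not tested. Between 2 wk and 1 wk Scd2 was the only member with an unadjusted p under 0.05 (0.41 ± 0.10, edgeR adjusted p = 0.868), against 4.58% of all genes (2.86% higher). Its libraries did not overlap, as in 0.93% of all genes in the higher direction. In both comparisons 0 members passed after adjustment with edgeR (0.0% of all genes), DESeq2 or voom. Log2 fold changes from 1 wk to 2 wk were above 0 in 10 of 11 fatty acid genes and 9 of 19 sterol enzymes, against 52.3% of all genes.

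Of 70 further genes of lipid and sterol handling, from Srebf processing to transport and glycerolipid synthesis, all were tested and 0 passed edgeR's quasi-likelihood test against sedentary mice. An unadjusted p under 0.05 was given to 1 of them at 24 h, 2 at 1 wk and 6 at 2 wk. These are 1.43%, 2.86% and 8.57% of the 70, against 8.92%, 6.05% and 7.26% of all genes, so the shares were below or near the background. Chka, which starts phosphatidylcholine synthesis, had log2 fold changes of 0.45 ± 0.09 at 24 h (SE, adjusted p = 0.0972), 0.22 ± 0.09 at 1 wk and 0.28 ± 0.09 at 2 wk. Cyp27a1, which oxidises the cholesterol side chain, had 0.21 ± 0.08 at 1 wk and 0.28 ± 0.08 at 2 wk. At 2 wk the oxysterol hydroxylase Cyp7b1 was lower (−0.41 ± 0.13), and the cholesterol exporter Abca1 (0.72 ± 0.31), the phosphatidate phosphatase Lpin1 (0.54 ± 0.18) and the acyl-CoA synthetase Acsl5 (0.18 ± 0.08) were higher. The median log2 fold change of the 70 genes was 0.00, 0.01 and 0.04 at the 3 durations.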

How the data were processed

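The deposited table holds raw read counts per gene, which the authors counted with HTSeq 0.10.0 after checking reads with FastQC 0.10.1, on GRCm38 (mm10), per the submitters' processing notes. Libraries were polyadenylated and stranded (TruSeq), per the labels' protocols. The aligner, the annotation release, the strand setting and the treatment of reads matching several genes are not stated in the sources used here. Of the count columns, 16 matched samples by name and 8 that matched none were not used. GENCODE M21 named 52133 IDs (94.1%).

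From the counts, edgeR 4.0.16 (R 4.3.3) kept 16126 genes with filterByExpr by group, scaled libraries by TMM and fitted all 16 in 1 robust quasi-likelihood model, with Benjamini-Hochberg adjustment over all 16126 genes and a threshold of 0.05. CPM are TMM-scaled, log2 CPM used a prior count of 2, and RPKM divide CPM by the kilobases of annotated exons. Errors are SD for levels and SE for log2 fold changes. As alternatives, DESeq2 1.42.0, voom with quality weights (limma 3.58.1), RLE size factors, other filters, a replicate block, fits of 2 groups and leaving out each library were tried. All 24 pairs of libraries within groups differed by more than sampling noise. On simulated counts for 2 wk against sedentary mice, edgeR recovered 73 of 100 genes changed by 1 in log2 and 96 of 100 changed by 2, with 11 false calls among 180, so smaller differences can be missed. The median SE of a log2 fold change at 2 wk was 0.144.

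The members, lists and comparisons were chosen with earlier results of these data known. In each comparison with sedentary mice, values in every library are given for the 4 sterol enzymes, 3 fatty acid genes and 2 regulators of smallest p, and always for Srebf1, Srebf2, Insig1, Fdps, Sqle, Fasn, Acaca, Scd1 and Elovl6. Other pathway genes and markers are named only where the unadjusted p is under 0.05 or to check a tissue. Markers of proximal tubule, thick limb, distal tubule, collecting duct, podocytes, endothelium, macrophages, T cells, fibroblasts, fat cells and adrenal cortex and 6 heat shock genes were summed per library.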

Additional observations from a re-analysis of the deposited data

Results flagged for a closer look

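Of 168 groups of 4 libraries checked for a value far from the other 3, 10 stood out, where chance alone gives about 1 in 20. Of these, 4 belong to the 3rd sedentary library. It was lowest for Ebp (127.8 CPM, next 130.2 CPM) and Acaca (11.6 CPM, next 15.4 CPM), highest for Sc5d (56.3 CPM, next 49.97 CPM) and lowest in the fatty acid average (−0.13, next 0.03). In the 3rd 2 wk library Fasn was at 69.3 CPM (next 118.8 CPM) and Elovl5 at 46.7 CPM (next 49.7 CPM). Tm7sf2 was high in the 3rd 24 h library (18.9 CPM, next 16.9 CPM). Ebp was low in the 4th 1 wk library (114.7 CPM, next 152.9 CPM). Srebf1 was high in the 2nd 2 wk library (103.6 CPM, next 81.9 CPM). The summed adrenal cortex markers were high in the 1st 1 wk library (4.10 CPM, next 0.66 CPM).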

How the results depend on the processing

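The number of members at an unadjusted p under 0.05 moved with the test and the libraries used. At 24 h it was 3, and voom gave 6, no filter 5, the replicate block 8 and a fit of only the 2 groups 10. At 1 wk it was 6, and voom gave 12 and leaving out both libraries with adrenal or fat transcripts 3, a choice made after seeing the data. For 1 wk against 24 h it was 2, and voom gave 9 and the replicate block 4. For 2 wk against 1 wk it was 1, voom, no filter and leaving out both libraries each gave 3, and the replicate block 4. Over the 4 groups it was 12, voom gave 21 and leaving out both libraries gave 8. The count over all genes at that p moved as well. At 24 h it was 1439 of 16126, and voom gave 2244 and the replicate block 1592. No filter gave 1816 of 28926 and the fit of only the 2 groups 2000 of 15597. At 1 wk it was 975, and voom gave 2365 and leaving out both libraries 961 of 16292. For 1 wk against 24 h the count over all genes was 1153, and voom gave 1551 and the replicate block 1240. For 2 wk against 1 wk it was 738, and voom gave 2322 and the replicate block 948. No filter gave 1196 of 28926 there, and leaving out both libraries 888 of 16292. Over the 4 groups it was 1407, and voom gave 3440 and leaving out both libraries 1349 of 16292. The cause was not tested. Leaving out each library in turn gave 2 to 5 at 24 h, 2 to 13 at 1 wk, 9 to 15 at 2 wk, 2 to 7 for 1 wk against 24 h, 8 to 14 for 2 wk against 24 h, 1 to 7 for 2 wk against 1 wk and 7 to 18 over the 4 groups. Over all genes, of which these fits tested 16306 to 16344, the counts in the same order were 883 to 1672, 605 to 1789 and 731 to 2061. Between durations they were 662 to 1571, 814 to 2356 and 449 to 2785, and over the 4 groups 1013 to 2318. Under every alternative the medians of both branches moved by less than the pooled SD of the branch averages. That SD was 0.08 for sterol enzymes and 0.13 for fatty acid genes. It is a wide bound, near the sterol median at 24 h itself (0.09), so little follows from it. Without single libraries the sterol median was 0.06 to 0.11, 0.12 to 0.22 and 0.11 to 0.15 at the 3 durations. The fatty acid median was −0.05 to 0.02, 0.01 to 0.10 and 0.19 to 0.32. At 24 h the fatty acid median, −0.02, was 0.02 without the 4th 24 h library. For the genes and comparisons named by rule, 800 alternative values kept sign and side of the threshold, 11 crossed it upward and 21 changed sign. Those 21 belong to these log2 fold changes, given as the range over fits that left out a library. At 24 h they are Stard4 (−0.11 to 0.021), Insig1 (−0.11 to 0.0053), Srebf1 (−0.094 to 0.059), Srebf2 (−0.042 to 0.057), Fasn (−0.024 to 0.14) and Elovl6 (−0.14 to 0.019). At 1 wk they are Acaca (−0.034 to 0.18), Scd1 (−0.24 to 0.048) and Elovl6 (−0.053 to 0.087), and at 2 wk Scd1 (−0.019 to 0.39). Voom gave −0.025 for Srebf2 at 24 h and 0.062 for Scd1 at 1 wk, and leaving out both libraries with adrenal or fat transcripts gave −0.034 for Acaca and −0.053 for Elovl6 at 1 wk. Over all 36 members and the 3 comparisons with sedentary mice, 28 of 108 log2 fold changes changed sign in at least 1 fit that left out a library (16 at 24 h, 8 at 1 wk and 4 at 2 wk), 0 of them with an unadjusted p under 0.05 over all libraries. The replicate numbers did not pair the libraries throughout. Of 24 same-number pairs 8 had a correlation over 0.1 (range −0.24 to 0.37), and 7 of 16 libraries correlated best with their own number. The pairs over 0.1 were 5 of 6 for number 3 (0.05 to 0.37), 3 of 6 for number 1 and 0 of 6 for numbers 2 and 4. Pairs of different numbers reached as high, with 0.39 for the 4th 1 wk and the 2nd 2 wk library. No label ties the libraries numbered 3, and the cause of their correlations was not tested. With a replicate block edgeR passed Scd2 for 2 wk against sedentary mice (adjusted p = 0.0457) and against 24 h (0.0473). Every member had 370 counts or more in each library, and counting noise was part of the spread for those with the fewest.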
